A study of Homo sapiens with 6 samples.

Results

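The 10 genes described here encode the enzymes that break down heme, the subunits of the iron store ferritin, and the main carriers and one sensor of cellular iron: HMOX1, HMOX2, BLVRA, BLVRB, FTL, FTH1, TFRC, SLC40A1, SLC11A2 and IREB2. They were taken by gene name from a deposited table of 58735 genes, and all 10 were found in it. The set was chosen by the values of HMOX1 and FTL, which an earlier corrected fit of this same comparison had called higher with EGLN3, set against the iron uptake and export genes, which it had not called. The differences between the groups given below for the 10 genes are therefore a description. Adjusted p-values, calls and intervals printed for these genes are outputs of the fits and do not count as tests of them. RNA was sequenced in bulk from NCI-N87, an established human gastric cancer line grown in RPMI 1640 medium with fetal bovine serum. In 3 libraries the cells had received the plasmid PLVX-IRES-Puro-EGLN3, labelled EGLN3 overexpression, and in 3 libraries the empty plasmid PLVX-IRES-Puro, labelled control. All cells were then kept under puromycin, which kills cells without the plasmid, for 7 days. Cells of EGLN3 replicates 1 and 2 and of all empty vector replicates had the plasmid for 1 day before that, and those of EGLN3 replicate 3 are labelled as having had it for 5 days. The labels do not say whether replicates came from separate cultures or clones, so the spread between them may be technical.

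Heme oxygenases open the heme ring and set free iron, carbon monoxide and biliverdin, which biliverdin reductases turn into bilirubin. HMOX1 is the inducible heme oxygenase, raised by heme and by oxidants through the factor NRF2 and held down by the heme sensor BACH1, and HMOX2 is the constitutive one. Iron enters cells on transferrin through the receptor TFRC, crosses membranes through the carrier SLC11A2 (DMT1), is stored inside shells of ferritin heavy (FTH1) and light (FTL) chains, and leaves through ferroportin, SLC40A1. When iron is scarce, the iron regulatory proteins, among them IREB2 (IRP2), bind a short hairpin called the iron-responsive element (IRE). An IRE before the coding sequence, as in ferritin, then blocks translation with little effect on the mRNA level, whereas the IREs after the coding sequence of TFRC protect its mRNA from decay. EGLN3 (PHD3) is itself an iron-dependent dioxygenase that hydroxylates proline residues and needs oxygen and 2-oxoglutarate.

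The matches below mark which of the 10 mRNAs hold a strict form of the IRE, the element that iron regulatory proteins are known to bind. All annotated coding transcripts of the 10 genes (GENCODE release 29, GRCh38) were searched on the transcript strand for a C, a stem of 5 bases, the 6-base loop CAGTGN and 5 bases that pair with the stem, G-U pairs allowed. A match was present in 4 of the 10 genes, at 7 places, and in 1.48% of 19684 coding genes. The search lengths differ between genes, and a match is a description of letters, not evidence of binding. Each 30-base stretch below is written 5′ to 3′ as DNA, with the loop in capitals.
FTL 5′ UTR, chr19:48965335-48965364, plus strand: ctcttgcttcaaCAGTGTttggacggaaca
FTH1 5′ UTR, chr11:61967573-61967602, minus strand: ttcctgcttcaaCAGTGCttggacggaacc
SLC40A1 5′ UTR, chr2:189580660-189580689, minus strand: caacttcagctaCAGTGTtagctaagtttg
TFRC 3′ UTR, chr3:196050978-196051007, minus strand: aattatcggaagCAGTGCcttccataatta
TFRC 3′ UTR, chr3:196050574-196050603, minus strand: cattatcgggagCAGTGTcttccataatgt
TFRC 3′ UTR, chr3:196050509-196050538, minus strand: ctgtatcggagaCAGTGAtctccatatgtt
TFRC 3′ UTR, chr3:196050462-196050491, minus strand: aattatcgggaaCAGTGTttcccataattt
The 2 ferritin sites were identical at 26 of 30 bases. The SLC40A1 site lay in 1 of its 5 coding transcripts, the FTH1 site in 7 of 8, the TFRC sites in 3 of 4 and the FTL site in its only one. HMOX1, HMOX2, BLVRA, BLVRB, SLC11A2 and IREB2 held no match, which says only that these letters are not in the annotated transcripts. Variant elements, such as those with an unpaired base in the stem, were not searched for, so these genes may still carry an IRE.

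Library totals ran from 15157265 to 16767383 counts, and all 10 genes passed the filter on low counts with 15726 genes in all. Levels are given as CPM, counts scaled to the size of each library with TMM (a factor per library that evens out its composition). EGLN3 had 481, 1640 and 1717 CPM in EGLN3 replicates 1 to 3, against 0.582, 0.702 and 0.565 CPM in empty vector replicates 1 to 3. Every library fitted its label by this measure, with the level of EGLN3 replicate 1 well below the other two. EGLN3 was the 1 gene called in edgeR's quasi-likelihood test without correction (adjusted p = 0.031), which is 0.00636% of the genes tested. The marker sums that follow are CPM of the library total, without TMM scaling. The 6 epithelial markers EPCAM, CDH1, KRT8, KRT18, KRT19 and ERBB2 summed to 35109 to 48669 CPM with EGLN3 and 39234 to 45773 CPM with the empty vector, all present. The 6 markers of leukocytes and of macrophages, which recycle heme iron in the body, summed to 5.81 to 7.46 CPM with EGLN3 and 5.27 to 7.57 CPM with the empty vector. The summed erythroid markers, among which HBB was at 0 counts in all libraries, stayed below 1 CPM, at 0.396 to 0.907 CPM with EGLN3 and 0.485 to 0.69 CPM with the empty vector. The 5 fibroblast markers, with COL1A2 at 0 counts, summed to 3.57 to 4.85 CPM with EGLN3 and 4.89 to 5.33 CPM with the empty vector, and the 4 hepatocyte markers to 0.66 to 1.03 CPM and 0.502 to 1.27 CPM. In bulk RNA such as this, fewer cells with a transcript and less transcript per cell cannot be told apart.

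A strong axis ran across the libraries of both groups. The first principal component of log2 CPM held 70% of the variance and placed EGLN3 replicates 1 to 3 at -59.4, 23.3 and 45.9 and empty vector replicates 1 to 3 at 36.2, -11.5 and -34.4. Most of the 10 genes moved along it, in 2 blocks. HMOX2, BLVRA, BLVRB, FTL and HMOX1 were highest in EGLN3 replicate 1, and TFRC, SLC40A1, SLC11A2 and IREB2 were lowest there. Within the EGLN3 group alone, BLVRB spanned 1.35 on the log2 CPM scale, HMOX2 1.08, IREB2 1.01, BLVRA 0.96, FTL 0.89 and TFRC 0.77, against 0.45 for HMOX1 and 0.14 for FTH1. Within the empty vector group the same genes spanned 0.68, 0.66, 0.68, 0.65, 0.67 and 0.54, against 0.68 for HMOX1 and 0.31 for FTH1. The blocks also differed in sequence make-up. The GC content of the longest transcript ran from 50.9% in BLVRA to 58.2% in BLVRB in the block high in EGLN3 replicate 1, and from 38.3% in IREB2 to 43.0% in SLC11A2 in the other. FTH1, which moved least, had 50.1%.

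For that reason each gene is given both without correction and in a corrected fit, which was chosen after results of these libraries were known. The corrected fit takes out of each library a smooth trend on GC content and gene length and adds 1 surrogate variable, a term estimated from the libraries that follows the axis. Of 15726 genes, it called 145 at an adjusted p under 0.05, which is 0.922%, with 0.343% higher and 0.579% lower. Its errors leave out the uncertainty of the correction and may be too small. Of the 10 genes, 2 were called in it, HMOX1 (adjusted p = 0.00071 in edgeR) and FTL (adjusted p = 0.00023 in edgeR), and the nearest gene on the other side of the threshold was IREB2 (adjusted p = 0.52 in edgeR). Both calls were lost with the GC and length trends alone, with the replicate number as a block beside them, and with a term for the side of the axis, chosen after seeing the data, in place of the whole correction. Without correction 0 were called, by edgeR or by DESeq2. These are the values that chose the genes, and nothing is read from the counts. In CPM, 0 of the 10 genes had groups that did not overlap, against 6.26% of all genes tested, 2.64% with EGLN3 higher. Fold changes are log2 of EGLN3 over empty vector throughout.

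**Figure D1:**
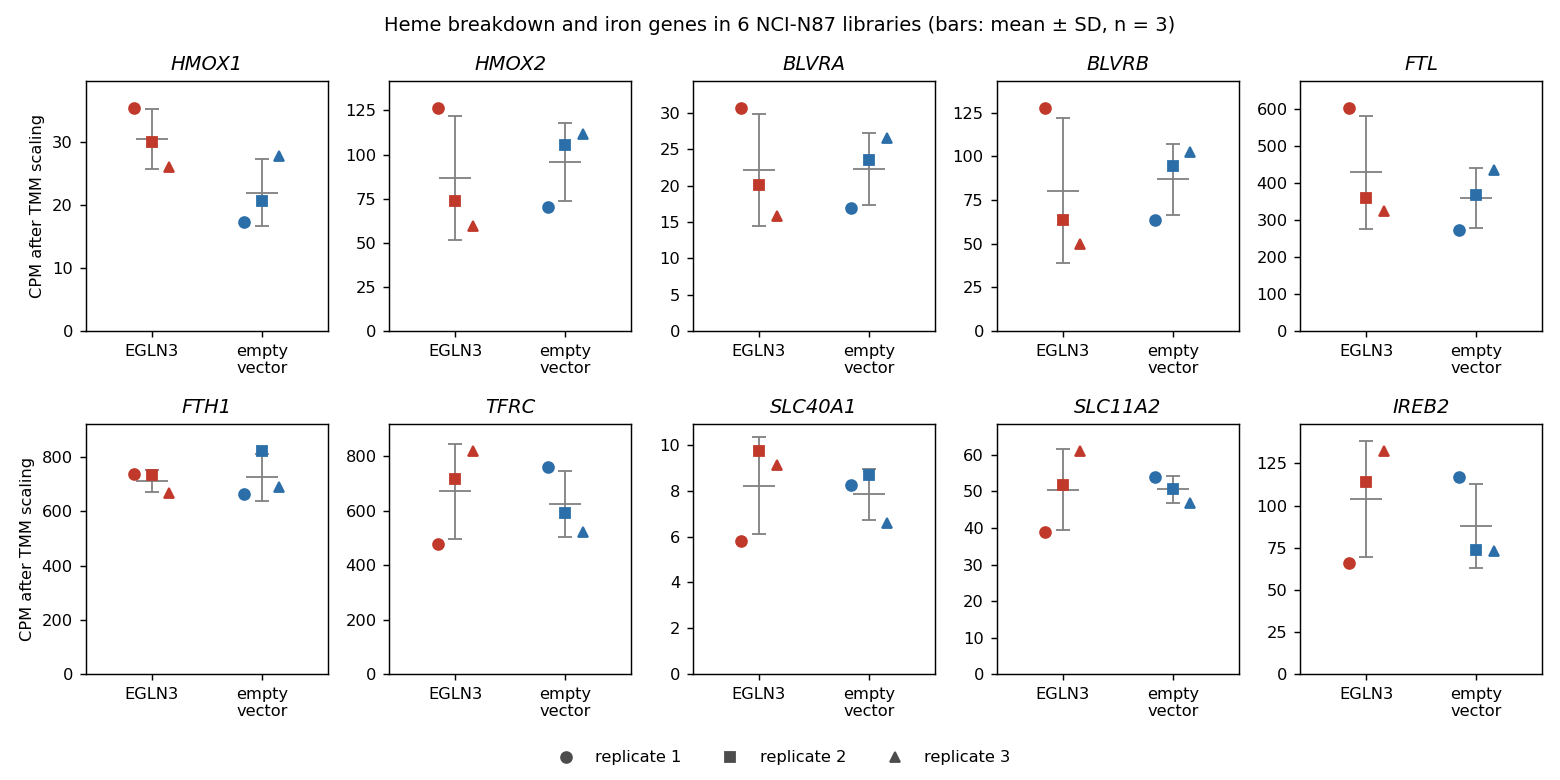
CPM after TMM scaling (vertical axes, from 0) of the 10 genes in the 3 EGLN3 and 3 empty vector libraries, 1 point per library with the replicate number as its shape, and mean ± SD as bars (n = 3). HMOX2, BLVRA, BLVRB and FTL have EGLN3 replicate 1 far above the other EGLN3 libraries, TFRC and IREB2 have it far below them, and in HMOX1 the EGLN3 libraries (26.0 to 35.5 CPM) lie mostly above the empty vector libraries (17.4 to 27.8 CPM).

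HMOX1 (ENSG00000100292, chromosome 22, 35380361 to 35394214, plus strand) was higher with EGLN3, and had the largest difference of the 10 genes in both fits. It measured 35.5, 30.1 and 26.0 CPM in EGLN3 replicates 1 to 3, against 17.4, 20.7 and 27.8 CPM in empty vector replicates 1 to 3. EGLN3 replicates 1 and 2 stood above every empty vector library, while EGLN3 replicate 3 lay just below empty vector replicate 3, so the groups overlapped. The means were 30.5 ± 4.74 CPM with EGLN3 and 21.98 ± 5.31 CPM with the empty vector (SD, n = 3 each), on 417 to 538 counts and 299 to 443 counts per library. Without correction the log2 fold change was 0.47 (SE 0.21). In the corrected fit it was 0.59 (SE 0.09), 50.8% higher with EGLN3, and it lay between 0.51 and 0.80 when each library was left out in turn. Corrected levels were 29.4, 33.4 and 32.4 CPM with EGLN3 and 19.3, 19.3 and 24.2 CPM with the empty vector, with no overlap. Groups did not overlap after the correction in 24.3% of all genes tested, 11.8% with EGLN3 higher, and in 3 of the 10, HMOX1, FTL and, by a very small margin, IREB2. The correction was estimated from these same libraries, so corrected levels lie closer together in part by its construction. Before the correction the highest HMOX1 level fell in EGLN3 replicate 1, the library with the lowest EGLN3 level of its group. After the correction it fell in EGLN3 replicate 2, and EGLN3 replicate 1 was the lowest of its group.

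HMOX2 (ENSG00000103415, chromosome 16, 4474690 to 4510347, plus strand), the constitutive enzyme, did not share that difference. It had 126, 74.0 and 59.6 CPM with EGLN3 and 70.3, 105 and 111 CPM with the empty vector. The EGLN3 group held both the highest and the lowest of the 6 libraries. The log2 fold change was -0.14 (SE 0.32) without correction, -0.50 without EGLN3 replicate 1 and 0.07 without EGLN3 replicate 3, and it was -0.06 (SE 0.05) in the corrected fit, with a 95% interval of -0.17 to 0.04. HMOX2 shares 21074 bp with NMRAL1 on the opposite strand, which averaged 879 counts. The sources used here do not say whether strand was used in counting, and without strand the reads of the stretch they share cannot be told apart.

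Set against HMOX2 in the same library, HMOX1 separated the groups without any correction. FPKM are the deposited counts per kilobase of gene, scaled by a single factor per library. In FPKM the ratio of HMOX1 to HMOX2 was 0.443, 0.641 and 0.689 with EGLN3, against 0.39, 0.311 and 0.393 with the empty vector. All 3 EGLN3 libraries stood above all 3 empty vector libraries, EGLN3 replicate 1 by the smallest margin. On the log2 scale the mean ratio was -0.79 ± 0.34 with EGLN3 and -1.46 ± 0.19 with the empty vector (SD, n = 3 each), a difference of 0.68 that ran from 0.55 to 0.87 with 1 library left out. Of all genes tested, 3.71% had a ratio to HMOX2 whose groups did not overlap. A ratio within a library is free of its scaling but not of a bias that acts on genes unequally. Among all 45 pairs of the 10 genes, 7 had ratios without overlap, against 6.37% of all pairs of genes tested, and pairs that share a gene are not independent. These included all 6 that set HMOX1 or FTL against HMOX2, BLVRA or BLVRB, all genes high in EGLN3 replicate 1, and the seventh was HMOX2 with BLVRA.

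BLVRA and BLVRB, the biliverdin reductases that act after heme oxygenase, differed little between the groups. BLVRA (ENSG00000106605, chromosome 7) had 30.7, 20.0 and 15.8 CPM with EGLN3 and 16.9, 23.6 and 26.6 CPM with the empty vector. BLVRB (ENSG00000090013, chromosome 19), which also reduces flavins, had 128, 63.5 and 49.95 CPM with EGLN3 and 63.8, 94.2 and 102 CPM with the empty vector. In both genes the EGLN3 libraries enclosed the empty vector libraries. Corrected log2 fold changes were 0.01 (SE 0.08) for BLVRA and -0.05 (SE 0.05) for BLVRB, with 95% intervals of -0.16 to 0.18 and -0.16 to 0.06. The uncorrected value of BLVRB was -0.11 (SE 0.38), and it was -0.60 without EGLN3 replicate 1 and 0.14 without EGLN3 replicate 3. The ratio of BLVRA to BLVRB differed by 0.16 on the log2 scale, with groups that overlapped. Of all genes tested, 2.45% had a ratio to BLVRB without overlap.

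FTL (ENSG00000087086, chromosome 19, 48965301 to 48966878, plus strand), the light chain that helps iron to form its mineral core inside ferritin, was the other gene higher with EGLN3 in the corrected fit. Its levels were 604, 360 and 325 CPM in EGLN3 replicates 1 to 3, against 274, 369 and 435 CPM in empty vector replicates 1 to 3. Only EGLN3 replicate 1 stood above all empty vector libraries, and the groups overlapped. The means were 430 ± 152 CPM with EGLN3 and 359 ± 80.8 CPM with the empty vector (SD, n = 3 each). Without correction the log2 fold change was 0.26 (SE 0.29), and it was -0.06 without EGLN3 replicate 1. After the correction the levels were 426, 417 and 447 CPM with EGLN3 and 334, 338 and 349 CPM with the empty vector. The corrected log2 fold change was 0.34 (SE 0.04), 26.2% higher with EGLN3, and lay between 0.29 and 0.37 with each library left out in turn. The value for FTL thus rests on the correction more than that for HMOX1, whose uncorrected value stayed between 0.33 and 0.68 with 1 library left out.

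**Figure D2:**
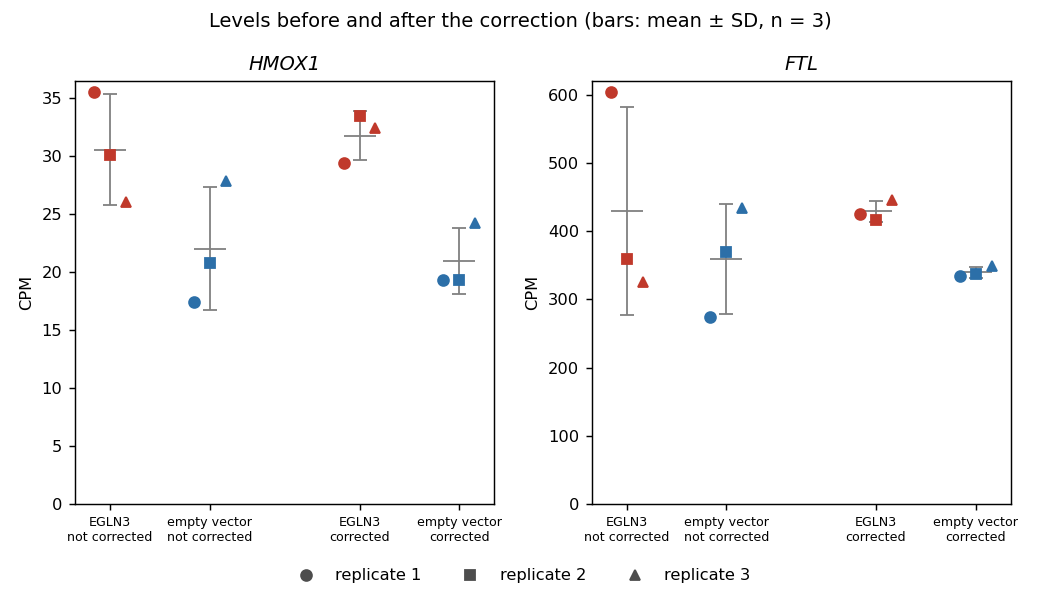
CPM (vertical axes, from 0) of HMOX1 and FTL in each library before and after the correction, with the EGLN3 group left of the empty vector group in each pair and mean ± SD as bars (n = 3). FTL spans 325 to 604 CPM with EGLN3 before the correction and 417 to 447 CPM after it, and its groups separate only after it.

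FTH1 (ENSG00000167996, chromosome 11), the heavy chain that oxidises iron as it enters ferritin, was the steadiest of the 10 genes. It had 736, 733 and 666 CPM with EGLN3 and 662, 821 and 688 CPM with the empty vector. Its log2 fold change was -0.02 (SE 0.14) without correction and -0.01 (SE 0.06) in the corrected fit, with a 95% interval of -0.14 to 0.12. The deposited FPKM of FTL was 1.9, 1.14 and 1.13 times that of FTH1 with EGLN3, and 0.957, 1.04 and 1.46 times with the empty vector. These ratios overlapped between groups, as did those to FTH1 of all but 3.59% of genes tested. Their difference of 0.25 on the log2 scale was -0.00 without EGLN3 replicate 1. Both ferritin genes have many processed copies in the genome. The table lists 16 copies of FTL, of which 3 had any counts, and 25 of FTH1, of which 15 had counts. Of the counts of FTL and its copies together, the copies held 0.0655% to 0.192% with EGLN3 and 0.0433% to 0.148% with the empty vector. Of those of FTH1 and its copies, the copies held 1.31% to 2.46% with EGLN3 and 1.54% to 2.46% with the empty vector, led by FTH1P7 and FTH1P8. Reads that fit a parent and a copy equally may have been lost or divided in counting, so ferritin levels are uncertain to that extent.

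In the corrected fit, the genes of iron uptake and export had smaller differences than HMOX1 and FTL. TFRC (ENSG00000072274, chromosome 3), the receptor with the 4 IREs above, had 479, 715 and 818 CPM with EGLN3 and 760, 590.5 and 523 CPM with the empty vector. Its log2 fold change was 0.10 (SE 0.25) without correction, 0.31 without EGLN3 replicate 1 and -0.07 without EGLN3 replicate 3. In the corrected fit it was -0.01 (SE 0.04), with a 95% interval of -0.09 to 0.08. SLC11A2 (ENSG00000110911, chromosome 12), which moves iron into the cytosol, had 38.8, 51.6 and 61.0 CPM with EGLN3 and 54.0, 50.6 and 46.9 CPM with the empty vector, with a corrected log2 fold change of -0.09 (SE 0.06; 95% interval -0.22 to 0.04). In both genes EGLN3 replicate 1 was the lowest library and EGLN3 replicate 3 the highest.

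SLC40A1 (ENSG00000138449, chromosome 2), the only known cellular iron exporter, was the scarcest of the 10. It had 5.80, 9.72 and 9.12 CPM with EGLN3 and 8.26, 8.68 and 6.59 CPM with the empty vector, on 88 to 164 counts and 105 to 142 counts per library. Its log2 fold change without correction was 0.07 (SE 0.24), 0.28 without EGLN3 replicate 1 and -0.08 without EGLN3 replicate 2. In the corrected fit it was -0.03 (SE 0.14), and the 95% interval of -0.31 to 0.25 leaves room for changes nearly as large as that of FTL. IREB2 (ENSG00000136381, chromosome 15), the sensor that binds IREs, had 65.8, 114 and 132 CPM with EGLN3 and 117, 73.9 and 72.8 CPM with the empty vector. Its log2 fold change was 0.25 (SE 0.31) without correction, 0.50 without EGLN3 replicate 1 or empty vector replicate 1, and 0.03 without EGLN3 replicate 3. In the corrected fit it was 0.09 (SE 0.05), with a 95% interval of -0.02 to 0.20, and it was -0.04 with a term for the side of the axis. IREB2 activity is controlled mainly by breakdown of the protein, which RNA does not show.

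**Figure D3:**
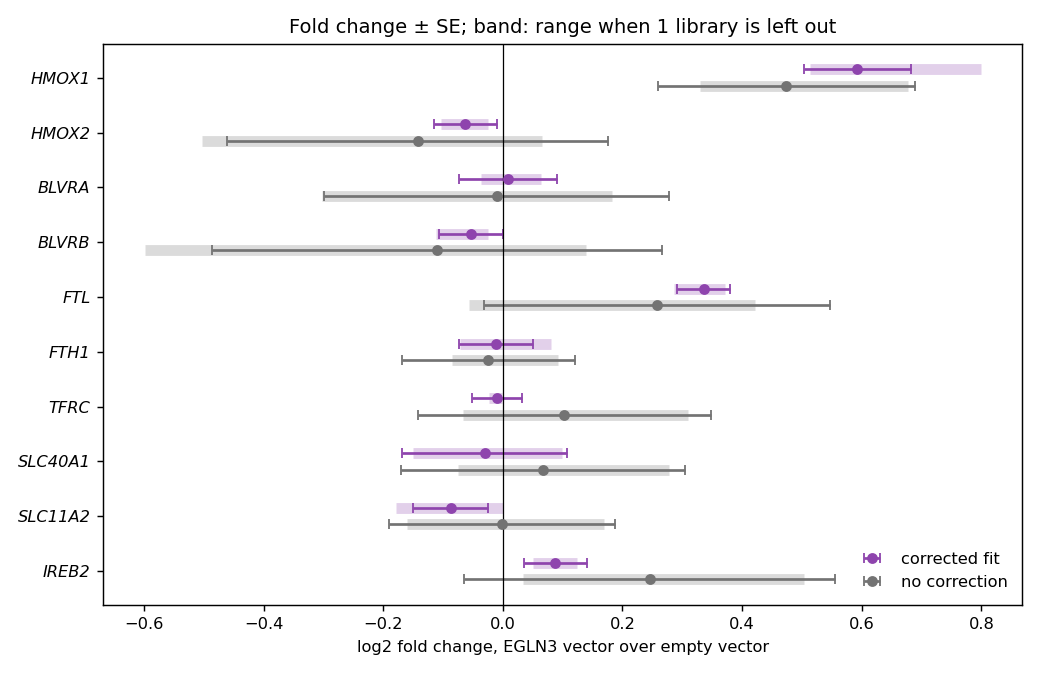
Log2 fold change of EGLN3 over empty vector (horizontal axis) for the 10 genes in the corrected fit (purple) and without correction (grey), with points ± SE and bands for the range when 1 library is left out. HMOX1 (0.59) and FTL (0.34) lie apart from the other 8 genes in the corrected fit, which lie between -0.09 and 0.09, and the FTL band without correction reaches below 0.

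Within the same libraries, the ratios of HMOX1 and FTL to uptake and export genes did not separate the groups. The FPKM ratio of FTL to TFRC was 11.3, 4.53 and 3.57 with EGLN3 and 3.24, 5.62 and 7.47 with the empty vector. The ratio of HMOX1 to TFRC was 0.243, 0.138 and 0.104 with EGLN3 and 0.0751, 0.115 and 0.174 with the empty vector. HMOX1 to SLC40A1 stood at 11.0, 5.57 and 5.14 with EGLN3 and 3.79, 4.3 and 7.6 with the empty vector. All 3 ratios overlapped between groups and were highest in EGLN3 replicate 1, with differences in the mean log2 ratio of 0.14, 0.40 and 0.45, which were -0.36, 0.06 and 0.10 without EGLN3 replicate 1. Of all genes tested, 4.05% had a ratio to TFRC without overlap and 2.09% a ratio to SLC40A1 without overlap.

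**Figure D4:**
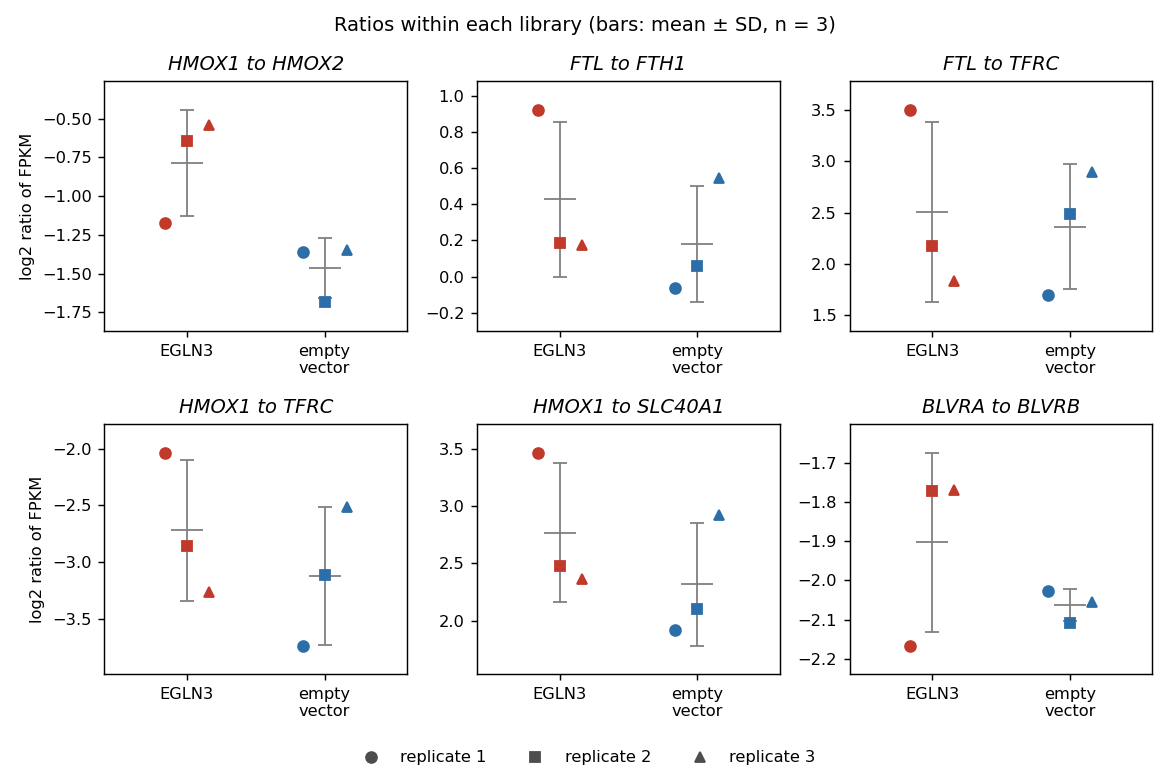
Log2 ratio of FPKM (vertical axes) of 6 pairs of genes within each library, with EGLN3 left of empty vector, the replicate number as the shape of each point and mean ± SD as bars (n = 3). HMOX1 to HMOX2 is the one pair of the 6 whose groups do not overlap, at means of -0.79 with EGLN3 and -1.46 with the empty vector.

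Per length of gene, ferritin led the set in both groups. FTL averaged 485 ± 174 FPKM with EGLN3 and 405 ± 92.5 FPKM with the empty vector, and FTH1 347 ± 21.4 FPKM and 353 ± 42.6 FPKM. Within libraries, FTL stood above FTH1 in every EGLN3 library and in empty vector replicates 2 and 3. It stood below FTH1 in empty vector replicate 1. With the empty vector FTL and FTH1 ranked 72 and 85 of 15726 genes tested. TFRC followed at 84.1 ± 21.4 FPKM with EGLN3 and 78.2 ± 14.9 FPKM with the empty vector, then BLVRB at 47.2 ± 24.7 FPKM and 50.8 ± 12.1 FPKM. HMOX2 had 22.7 ± 9.33 FPKM with EGLN3 and 24.9 ± 5.88 FPKM with the empty vector. HMOX1, at 12.6 ± 2.03 FPKM with EGLN3 and 9.04 ± 2.21 FPKM with the empty vector, stood near BLVRA, at 12.1 ± 4.24 FPKM with EGLN3 and 12.1 ± 2.74 FPKM with the empty vector, and the libraries of these genes overlapped in both groups. They also overlapped with those of IREB2, at 9.53 ± 3.1 FPKM with EGLN3 and 8.02 ± 2.25 FPKM with the empty vector. SLC11A2 had 4.92 ± 1.06 FPKM with EGLN3 and 4.92 ± 0.327 FPKM with the empty vector, and SLC40A1 1.88 ± 0.476 FPKM and 1.79 ± 0.251 FPKM (SD, n = 3 each for all). HMOX1 was thus below HMOX2 in all 6 libraries, and SLC40A1 below both uptake genes.

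Outside the 10 genes, 8 lists of the heme and iron pathways held 76 genes, of which 67 could be tested. The corrected fit called 1 of the 67, and it called 0.922% of all genes tested, 0.579% lower with EGLN3. A single call among 67 is near that share, and nothing is read from the count. The called gene was MAFK, which was lower with EGLN3. It encodes a small MAF protein that pairs with NRF2 or BACH1 on the elements that control HMOX1 and ferritin genes. MAFK had 54.2, 63.9 and 58.0 CPM with EGLN3 and 82.4, 82.3 and 69.0 CPM with the empty vector. All EGLN3 libraries lay below all empty vector libraries, as they did in 3.62% of all genes tested. Its corrected log2 fold change was -0.27 (SE 0.06; edgeR, adjusted p = 0.017), and without correction it was -0.41 (SE 0.14; adjusted p = 1.00). The call was lost without EGLN3 replicate 1 (-0.26, edgeR, adjusted p = 0.21) and without EGLN3 replicate 3 (-0.22, edgeR, adjusted p = 0.28). It was kept without EGLN3 replicate 2 and without each empty vector library, and over all 13 alternatives its adjusted p ran from 0.00048 to 1.00. The other 8 regulators of HMOX1 did not pass. NFE2L2, which encodes NRF2, was at 0.11 (SE 0.06), its inhibitor KEAP1 at -0.01 (SE 0.05) and BACH1 at 0.03 (SE 0.11).

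The other 7 lists had no called gene in either fit. Across all 67 tested genes, edgeR gave 15 an unadjusted p under 0.05 in the corrected fit and 1 without correction. Among all 15726 genes tested these counts were 2025 and 174. DESeq2 under the same correction also called 1 of the 67, with 12 at an unadjusted p under 0.05, against 1064 among all genes. The median corrected log2 fold change over the 67 was -0.04, against 0.00 over all genes tested. All 8 enzymes of heme synthesis were tested, with a median of -0.06, and the largest differences were those of CPOX (-0.17, SE 0.05) and PPOX (-0.16, SE 0.15), both late steps in the mitochondrion. Heme transport had a median of -0.06 over 8 genes. SLC48A1, which carries heme out of endosomes, was at 0.24 (SE 0.06; edgeR, adjusted p = 0.065), and ABCG2, an exporter of porphyrins, was at -0.39 (SE 0.37).

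Iron uptake and import into mitochondria had 10 of 13 genes tested and a median of 0.01. Its largest differences were SLC25A28, a mitochondrial iron carrier, at 0.18 (SE 0.06), and the ferrireductase STEAP4 at 0.18 (SE 0.36). Ferritin handling had 4 of 6 genes tested and a median of 0.04, with the iron chaperones PCBP2 at 0.20 (SE 0.05) and PCBP1 at -0.19 (SE 0.05) on opposite sides (edgeR, adjusted p = 0.079 for both). In iron sensing, 6 of 8 genes were tested with a median of -0.11 and 0 above 0, the farthest being TMPRSS6 (-0.30, SE 0.36) and HFE (-0.24, SE 0.15). The iron oxidases HEPH and HEPHL1 were at -0.11 (SE 0.10) and 0.03 (SE 0.06). Assembly of iron-sulfur clusters had 20 of 21 genes tested and a median of -0.04, with NUBP1, which builds cytosolic clusters, at -0.22 (SE 0.13).

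**Figure D5:**
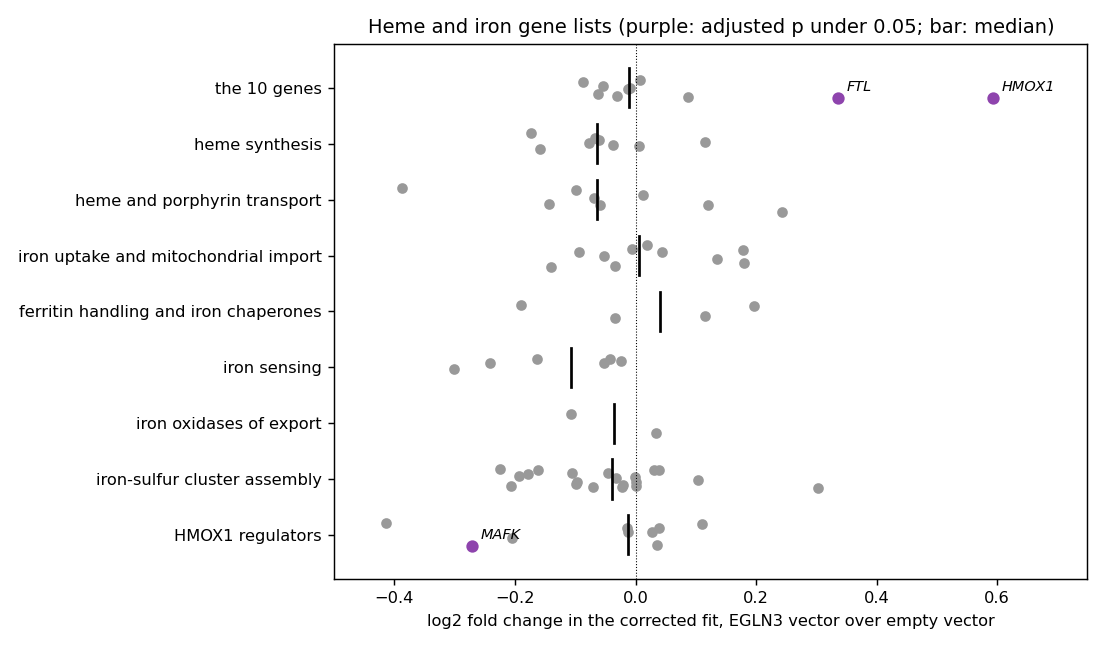
Corrected log2 fold change of EGLN3 over empty vector (horizontal axis) for the 10 genes and for the tested members of 8 heme and iron lists, 1 point per gene, with purple for an adjusted p under 0.05 and a bar at each median. Among the 67 genes of the lists only MAFK (-0.27) is purple, and HMOX1 and FTL stand at the right edge of the plot.

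The genes whose levels followed HMOX1 and FTL most closely over the 6 libraries were ranked by the root mean square distance of their centred log2 CPM, among 9358 protein-coding genes of at least 10 CPM on average. For HMOX1 these were MSMO1, a sterol oxidase (0.09), the zinc finger gene ZNF814 (0.10) and BTG1, an inhibitor of proliferation (0.12). For FTL they were GTF3C6 (0.02), a subunit of a factor for RNA polymerase III, the ubiquitin ligase subunit SKP1 (0.04) and the splicing factor SRSF2 (0.06). MSMO1 had 179, 142 and 144 CPM with EGLN3 and 96.9, 106 and 133 CPM with the empty vector. GTF3C6 had 54.9, 34.6 and 30.1 CPM with EGLN3 and 25.5, 34.5 and 40.8 CPM with the empty vector. EGLN3 replicate 1 was highest in all 6 of these genes. In MSMO1 all EGLN3 libraries stood above all empty vector libraries, as they did in 2.64% of all genes tested. The groups overlapped in ZNF814, BTG1, GTF3C6, SKP1 and SRSF2. These genes were picked for their likeness to HMOX1 or FTL, so their differences are a description as well.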

How the data were processed

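Whole-number gene counts and FPKM were deposited for 6 libraries, 3 per group. In each library the deposited FPKM follow from the counts, gene length and a single library factor, checked on the files. Per the submitters' processing notes, the tools were DESeq2 1.20.0, featureCounts 1.5.0-p3 and HISAT2 2.0.5 and the build hg38, with no role or order stated. Low counts were removed by filterByExpr, libraries were scaled by TMM, and groups were compared by the robust quasi-likelihood test in edgeR 4.0.16 (R 4.3.3) with Benjamini-Hochberg adjustment. The SE is the size of the log2 fold change over the square root of F. The corrected fit removed splines of 5 degrees of freedom on GC content of the longest transcript (GENCODE release 29, known for 99.96% of genes tested) and on gene length, then added 1 surrogate variable (svaseq, sva 3.50.0). Alternatives used DESeq2 1.42.0 and limma 3.58.1 and left out each library. No libraries of a group agreed within sampling noise (chi-square per degree of freedom 8.07 to 104). The text names the 10 genes, EGLN3, called pathway genes or else the 2 with the largest corrected difference per list, 2 ferritin copies, and the 3 genes most like HMOX1 and FTL. NFE2L2, KEAP1 and BACH1 were added after their values were seen. The 10 genes, the pathway lists and the corrected fit were chosen with earlier results of these data known. Some items that these rules would name are not reported here.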

Additional observations from a re-analysis of the deposited data

How the results depend on the processing

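HMOX1 and FTL had a positive corrected log2 fold change in all 13 alternatives, 0.51 to 0.80 for HMOX1 and 0.29 to 0.45 for FTL. Both were called in all 6 fits that left out 1 library. Both genes were chosen by a corrected fit of these same libraries, so a kept sign or call describes them and is no support. Neither was called with the GC and length trends alone (0.59 and 0.32), with the replicate number as a block beside those trends (0.60 and 0.32), or with a term for the side of that axis, chosen after seeing the data (0.62 and 0.45), and DESeq2 gave HMOX1 no adjusted p. The 145 genes called in the corrected fit became 713 with the surrogate variable and no trends, and 1 with the trends alone, with the block or with the side of the axis. With 1 library left out the count ran from 43 to 249, at 52, 76 and 43 without EGLN3 replicates 1, 2 and 3 and 249 without empty vector replicate 3. Of the pathway genes, 1 was called in the corrected fit and 7 with the surrogate variable alone. With 1 library left out 0 to 4 were called, 0 without EGLN3 replicate 1 or 3, 2 without EGLN3 replicate 2 or empty vector replicate 2, and 4 without empty vector replicate 3. Trends alone, the block and the side of the axis called 0 pathway genes, with 0, 0 and 9 at an unadjusted p under 0.05 in edgeR. Over all genes tested in those fits, 166, 35 and 1573 had an unadjusted p under 0.05. Without correction 1 gene was called, EGLN3, and DESeq2 called 1. The count was 0 with the replicate block and on log2(FPKM + 1) by limma, filtered or not, where 23, 229 and 531 genes had an unadjusted p under 0.05. With 1 library left out it was 0 to 1, and 1 only without EGLN3 replicate 1. Deviations of same-numbered libraries correlated at -0.79, -0.18 and -0.67 across genes. The first axis, where same-numbered libraries lie on opposite sides, weighs heavily in these values. They cannot decide whether same-numbered libraries were prepared together, which the labels do not say. Depth limits SLC40A1 most. The cause of these changes was not tested.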
